A study of Mus musculus with 16 samples.

Results

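The cytosolic ribosomal protein genes of the mouse were described here across sorted microglia, astrocytes, neurons and their input from whole brain. They were taken by name from the count table: every symbol that starts with Rpl or Rps followed by a digit, other than the Rps6k kinases, together with Rplp0, Rplp1, Rplp2 and Rpsa. This gave 93 of 22058 genes. No measured value entered this rule by name, though the family was chosen with earlier results of these data known. Of the 93, 43 encode proteins of the large subunit, 31 proteins of the small subunit and 3 the acidic stalk, 8 are paralogs of such genes, 7 carry pseudogene names, and Rps19bp1 is no ribosomal protein but a regulator of the deacetylase SIRT1. The libraries came from 4 untreated wild-type male C57BL/6 mice, numbered 2 to 5, and each mouse gave 1 library per group, so every group had n = 4. The groups were CD11b+ microglia, EAAT2+ astrocytes (EAAT2 is the glutamate transporter Slc1a2), Thy1+ neurons, and the input, which the labels name pooled without giving the step at which it was taken. No transgene, deletion or agent distinguished the groups. Brains were perfused and dissociated, dead cells were stained out, and cells positive for O1 or CD31, the usual surfaces of oligodendrocytes and endothelium, were gated away from the sorted groups. Libraries were 3′ tag libraries with molecular identifiers, read as 65-base single ends.

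The sorted libraries held less depth than the input, with 191236 to 1413564 counts in microglia, 211087 to 710828 in astrocytes and 116761 to 393199 in neurons, against 1702665 to 2811080 in input. The marker genes of the labelled cell types were measured first: 13 of 13 tested microglia markers were higher in microglia than in input, 12 of 13 astrocyte markers higher in astrocytes, and 11 of 12 neuron markers higher in neurons. Every tested endothelial and erythroid marker, and every oligodendrocyte marker but 1 in neurons, was lower in each sorted group than in input. Astrocytes 3 and 5 held more microglia-marker counts, 0.711% and 0.674% of counts, than astrocytes 2 and 4, with 0.195% and 0.206%. In neurons, 8 of 8 tested T and NK cell markers were higher than in input, with a summed share of 0.176, 0.147, 0.168 and 0.0592% of counts, against 0.00174 to 0.00365% in input. Thy1, the sorting antigen of the neurons, is also a surface protein of mouse T cells. Mitochondrially encoded transcripts took 14.3 to 21.3% of counts in neurons, against 6.62 to 10.9% in input.

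Each ribosome carries 1 copy of nearly every ribosomal protein, so cells make these proteins in step with each other. Their mRNAs begin with a C followed by a run of pyrimidines, the terminal oligopyrimidine (TOP) motif, through which the kinase mTORC1 and the RNA-binding protein LARP1 turn the translation of the whole family up or down together. The large subunit joins amino acids, the small subunit reads the mRNA, and the stalk of Rplp0 with dimers of Rplp1 and Rplp2 calls in the elongation factors. In the brain, ribosomes and ribosomal protein mRNAs are found in axons and dendrites as well as in cell bodies. A level or fold change below measures mRNA, and neither protein nor its translation.

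The shared start of these mRNAs can be read at the annotated transcription starts (RefSeq, GRCm38.p6), which were available for 66 of the 93 genes. The 30-base windows below run from 10 bases before the start to 20 bases from it. They cover genes that moved together, apart or hardly at all in the comparisons, and Rps6, which was not tested. Capitals mark a run of a C and at least 4 further pyrimidines that begins within 5 bases of the annotated start.
Rpl14 (chr9:120571507-120571536, plus strand): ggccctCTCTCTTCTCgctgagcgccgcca
Rpl15 (chr14:18270967-18270996, minus strand): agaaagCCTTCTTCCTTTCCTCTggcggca
Rpl27a (chr7:109519185-109519214, plus strand): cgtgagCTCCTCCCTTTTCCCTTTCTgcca
Rpl35a (chr16:33056472-33056501, plus strand): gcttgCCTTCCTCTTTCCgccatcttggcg
Rpl38 (chr11:114668570-114668599, plus strand): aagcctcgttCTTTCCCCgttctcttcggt
Rps6 (chr4:86857348-86857377, minus strand): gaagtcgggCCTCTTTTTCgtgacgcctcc
Rps10 (chr17:27635225-27635254, minus strand): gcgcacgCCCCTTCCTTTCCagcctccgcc
Rps18 (chr17:33955646-33955675, minus strand): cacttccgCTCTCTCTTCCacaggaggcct
Rps21 (chr2:180257369-180257398, plus strand): aggacccgCCCTCCTgcccaatagtgctgc
Such a run was found in 30 of the 66 genes (45.5%), against 21.2% of the 27025 genes in the same table. In the windows from 250 bases before the start to 50 bases from it, the letters CCGGAAG, the core read by ETS factors, occurred on either strand in 26 of the 66 (39.4%), against 9.93% of all genes, and GCCATNTTG, the core read by YY1, in 4 (6.06%), against 2.901%. These are matches of letters and say nothing on binding.

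A 3′ tag is assigned to a gene by the sequence near the end of the transcript, and this family has many copies there. The last 65 coding bases, as long as a read and ending with the stop codon (GENCODE M21 transcripts), are shown for genes whose counts are described below. In the first pair capitals mark the stop codon, and in the other lines they mark bases that differ from the first gene of the set.
Rps21 (gene at chr2:180257377-180258445, plus strand): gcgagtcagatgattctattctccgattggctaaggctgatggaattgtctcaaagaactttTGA
Rps6 (gene at chr4:86854660-86857412, minus strand): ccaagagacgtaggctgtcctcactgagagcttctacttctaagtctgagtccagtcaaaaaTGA
Rps27 (gene at chr3:90212522-90213651, minus strand): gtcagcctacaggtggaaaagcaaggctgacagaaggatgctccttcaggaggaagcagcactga
Rps27rt (gene at chr9:114982366-114982739, minus strand): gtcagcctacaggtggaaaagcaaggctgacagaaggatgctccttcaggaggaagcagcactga
Rps27l (gene at chr9:66946086-66949516, plus strand): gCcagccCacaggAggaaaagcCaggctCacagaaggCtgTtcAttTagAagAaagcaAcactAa
Rpl36a (gene at chrX:134585654-134588062, plus strand): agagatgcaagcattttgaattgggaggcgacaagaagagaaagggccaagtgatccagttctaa
Rpl36al (gene at chr12:69182731-69184083, minus strand): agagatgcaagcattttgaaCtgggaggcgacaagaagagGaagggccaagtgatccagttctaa
Rpl39 (gene at chrX:37082520-37085402, minus strand): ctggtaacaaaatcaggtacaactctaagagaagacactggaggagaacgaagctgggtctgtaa
Rpl39l (gene at chr16:10170226-10174911, plus strand): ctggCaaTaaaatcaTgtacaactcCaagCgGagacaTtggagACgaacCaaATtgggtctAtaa
The Rps21 window occurred in no other annotated gene, while that of Rps6, the substrate of the S6 kinases, occurred in 4 others, all of them pseudogenes. Rps27 and the retrogene Rps27rt were identical over the window. Rps27l differed from them at 13 bases, Rpl36al from Rpl36a at 2 and Rpl39l from Rpl39 at 13. How reads that match several genes were counted is not given in the sources used here, so the counts of genes with shared ends are uncertain.

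Neurons gave the largest share of their counts to the family and astrocytes the smallest on average. The 93 genes together took 1.96, 1.88, 1.89 and 2.09% of counts in the neurons of animals 2, 3, 4 and 5, 1.20, 1.09, 1.83 and 1.59% in microglia and 0.558, 0.844, 0.561 and 0.818% in astrocytes, against 0.821, 0.961, 0.897 and 0.822% in input. The means were 1.96 ± 0.0987% in neurons, 1.43 ± 0.342% for microglia and 0.695 ± 0.157% for astrocytes, against 0.875 ± 0.0674% in input (SD, n = 4 each). All neuron libraries lay above all microglia libraries, and all microglia libraries above all input libraries. The first separation depended on the denominator. With the deposited library totals, neurons 2, 3 and 4 took 1.47, 1.59 and 1.56%, below microglia 4 at 1.73%. Astrocytes and input overlapped: astrocytes 2, 4 and 5 lay below every input library, astrocytes 5 by little, and astrocytes 3 above the lower input libraries. Astrocytes 3 and 5, the closer ones, were those with more microglia-marker counts, whose part in the share was not tested. Without astrocytes 3 and 5, a choice made after seeing the data, the astrocyte share was 0.559%. The exact 95% binomial intervals cover counting error only, and in neurons 2, the shallowest library, the interval was 1.88% to 2.04%. Those of neurons 3 (1.84% to 1.92%) and neurons 4 (1.83% to 1.95%) overlapped that of microglia 4 (1.80% to 1.85%). The interval of astrocytes 5 (0.783% to 0.855%) held the shares of input 2 and 5. The order of the group means held with mitochondrially encoded transcripts left out of the totals, at 2.41% in neurons, 1.48% in microglia and 0.766% in astrocytes, against 0.962% in input. Neurons 5, with the lowest T and NK marker share of the neurons (0.0592%), had their highest ribosomal protein share; the part of such cells in the neuron values was not tested. In bulk libraries, fewer cells of a type and less of an mRNA per cell cannot be told apart.

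**Figure D1:**
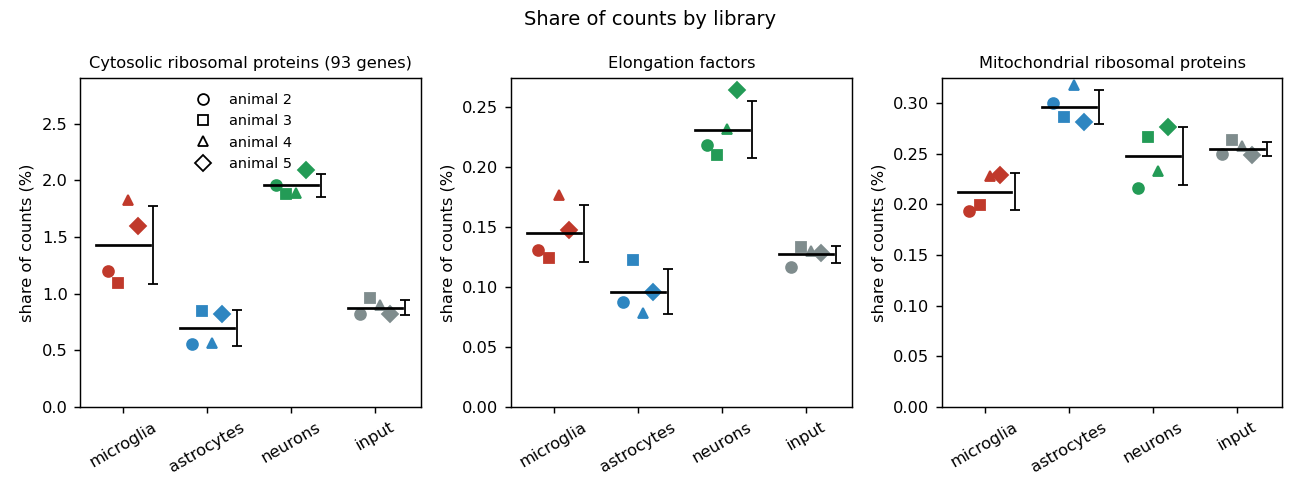
Share of each library's counts (%) for the 93 cytosolic ribosomal protein genes (left), the elongation factors (middle) and the mitochondrial ribosomal proteins (right), by group. Points are libraries, with a marker shape per animal, lines are group means and bars 1 SD (n = 4); in the left panel the neurons run from 1.88 to 2.09%, above every other library.

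The parts of the ribosome shared this order unequally. Large-subunit genes took 0.742 ± 0.129% of counts in neurons, 0.513 ± 0.108% in microglia and 0.283 ± 0.0743% in astrocytes, against 0.310 ± 0.0219% in input (SD, n = 4 each). Small-subunit genes took 1.02 ± 0.0767%, 0.733 ± 0.225% and 0.347 ± 0.0800% in the same groups, against 0.451 ± 0.0372% in input. The 3 stalk genes stood at 0.135, 0.123, 0.153 and 0.154% in microglia, 0.0414, 0.0313, 0.0355 and 0.0476% in astrocytes and 0.167, 0.107, 0.142 and 0.128% in neurons, against 0.0791, 0.0914, 0.0987 and 0.0718% in input. Every microglia and neuron library was above every input library for the stalk, every astrocyte library was below, and microglia and neurons overlapped each other. The ratio of small-subunit counts to those of the large subunit and stalk together was 1.43, 1.12, 1.27 and 0.921 in neurons, which held both the lowest and the highest ratio of the 16 libraries. It was 1.056 to 1.10 in astrocytes, 0.984 to 1.26 in microglia and 1.07 to 1.18 in input. In each library its own 10 most counted members held 45.9% to 54.3% of the counts of the family.

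Gene by gene, levels are given as CPM, counts scaled to libraries of equal size with TMM factors, in the order of animals 2, 3, 4 and 5. Differences are log2 fold changes from edgeR's quasi-likelihood test over the 9091 genes that passed a filter on low counts. Calls were made at a Benjamini-Hochberg adjusted p under 0.05. The filter kept 61 of the 93 members. Of these, 46 were at or above its level of 20.1 CPM in all 4 input libraries; the other 15 passed through sorted libraries and so had to stand higher there. Among these 15 are Rpl7, Rpl9, Rpl10, Rpl12, Rpl36al, Rps4x, Rps13, Rps16 and Rps25, which are named below. For them a higher value in sorted cells than in input was partly built into their being tested. The 3 comparisons with input use the same input libraries.

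In microglia, 36 of the 61 tested members were higher than in input and 0 were lower, with a median log2 fold change of 0.93, against a median of -0.04 over all genes tested, of which 24.1% were called higher and 29.8% lower. DESeq2 called 37 higher and 0 lower, and at an unadjusted p under 0.05 edgeR had 38 higher and 0 lower. The calls comprised 17 of 27 large-subunit genes, 14 of 23 small-subunit genes, all 3 stalk genes and 2 of 5 paralogs. Among the 46 members that passed in the input, 25 were higher, with a median of 0.77. In neurons, 41 of 61 were higher than in input and 0 lower, with a median of 1.39, against -0.11 over all genes, of which 11.2% were called higher and 13.7% lower. DESeq2 called 44 higher and 0 lower in neurons, and at an unadjusted p under 0.05 edgeR had 45 higher and 1 lower. Without neurons 4, 1 member was called lower. The calls in neurons comprised 19 large-subunit and 17 small-subunit genes, 1 of 3 stalk genes, 2 paralogs and both tested genes with pseudogene names, and 28 of the 46 members that passed in the input (median 1.11).

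Astrocytes were split: 9 of the 61 members were higher than in input and 11 lower, with a median log2 fold change of -0.01, against -0.09 over all genes, of which 16.3% were called higher and 19.1% lower. The member counts were close to that background in both directions. By class there were 4 higher and 5 lower large-subunit genes, 3 higher and 5 lower small-subunit genes, 1 lower stalk gene, 1 higher paralog and Rps19bp1. Among the 46 members that passed in the input, 6 were higher and 11 lower (median -0.26). Leaving out 1 library moved the counts too, to 15 higher without microglia 2, to 7 lower without microglia 4, input 4 or input 5, to 6 lower without input 3 and to 4 lower without astrocytes 2 or astrocytes 4. The balance moved with the scaling, to 11 higher and 7 lower with RLE size factors and to 6 higher and 19 lower with library totals only, under which the median of all genes was -0.43. Of the calls, 32 of 36 in microglia, 10 of 20 in astrocytes and 32 of 41 in neurons passed in every fit that left out 1 of the 16 libraries and tested the gene.

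**Figure D2:**
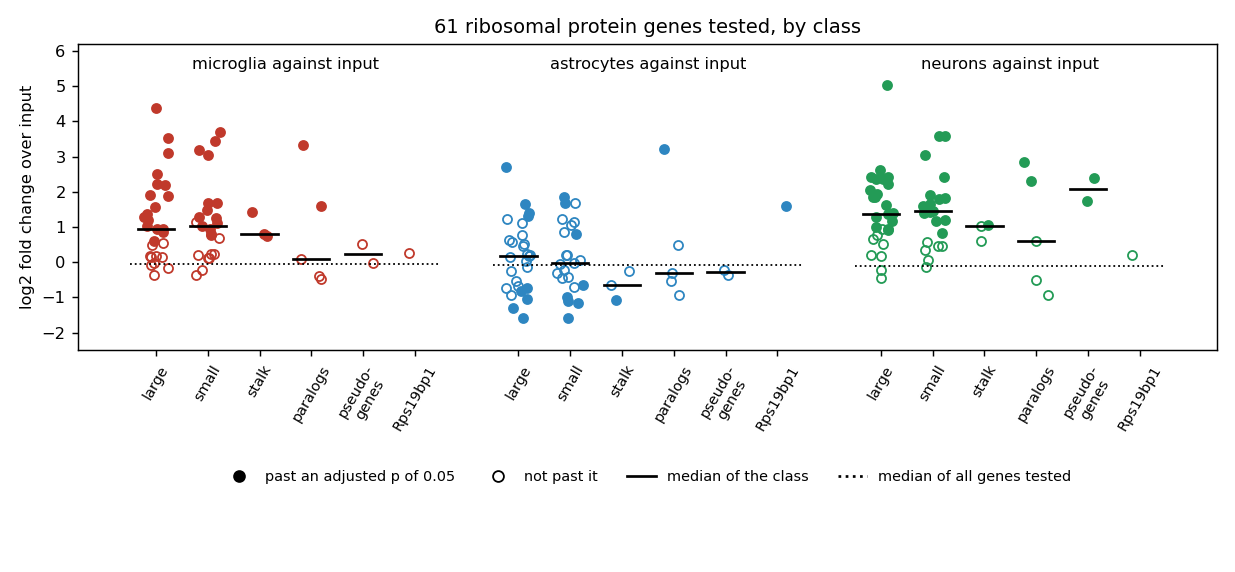
log2 fold change over input (vertical axis) of the 61 tested members in microglia, astrocytes and neurons, grouped by class along the horizontal axis. Filled points passed an adjusted p of 0.05, bars are class medians and dotted lines the median of all 9091 genes; the points lie mostly above the dotted line in microglia (median 0.93) and neurons (median 1.39) and on both sides of it in astrocytes (median -0.01).

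Among the large-subunit genes, 3 were called higher than input in every sorted group in the fits of all 16 libraries. This held whether levels were set against all genes or against the sum of the family. Rpl41, the smallest ribosomal protein, had 149.98, 204, 264 and 263 CPM in microglia, 123, 222, 144 and 279 in astrocytes and 273, 465, 275 and 266 in neurons, against 50.5, 61.9, 63.3 and 64.0 in input. Each sorted library was above all 4 input libraries. The log2 fold change was 1.90 ± 0.27 (SE, edgeR adjusted p = 8.9e-07) in microglia, 1.64 ± 0.28 (SE, edgeR adjusted p = 4.0e-05) in astrocytes and 2.43 ± 0.28 (SE, edgeR adjusted p = 2.3e-07) in neurons. Rpl30, a protein at the interface of the subunits, had 289.6, 255, 639 and 497 CPM in microglia, 177, 222, 203 and 187 in astrocytes and 660.01, 465, 462 and 56.8 in neurons, against 63.1, 86.0, 73.8 and 76.7 in input. It was above input in every sorted library but 1, neurons 5. Its log2 fold change was 2.503 ± 0.38 (SE, edgeR adjusted p = 2.3e-06) in microglia, 1.39 ± 0.39 (SE, edgeR adjusted p = 0.0057) in astrocytes and 2.42 ± 0.39 (SE, edgeR adjusted p = 3.9e-05) in neurons. Rpl10, which joins late in the making of the large subunit and helps the subunits meet, had 20.7, 1.70, 62.8 and 27.8 CPM in microglia, 8.56, 15.5, 10.1 and 4.57 in astrocytes and 61.6, 7.75, 140.2 and 10.7 in neurons, against 0.421, 2.41, 1.05 and 1.28 in input. Levels in the input were at the edge of detection and the sorted libraries varied widely. The log2 fold changes were 4.38 ± 0.74 (SE, edgeR adjusted p = 9.2e-06) in microglia, 2.72 ± 1.02 (SE, edgeR adjusted p = 0.038) in astrocytes and 5.04 ± 0.82 (SE, edgeR adjusted p = 3.7e-05) in neurons. The astrocyte call of Rpl10 was lost when astrocytes 2, 3 or 4 or input 2, 4 or 5 was left out, at most to a log2 of 2.79 and an edgeR adjusted p of 0.1 without astrocytes 4. It was also lost with the animal as a block (2.35, edgeR adjusted p = 0.058). Its difference was 3.73 in microglia without microglia 4 and 3.67 in neurons without neurons 4. All of its 65-base windows in the last 300 bases occur in other genes as well.

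Rpl12, at the base of the stalk, had 46.5, 104, 35.5 and 87.8 CPM in microglia, 17.1, 0, 13.5 and 18.3 in astrocytes and 8.80, 23.2, 26.0 and 28.4 in neurons, against 5.47, 6.53, 6.33 and 5.54 in input. Every microglia library was above every other library. The log2 fold change over input was 3.52 ± 0.40 (SE, edgeR adjusted p = 2.5e-08) in microglia, 1.12 in astrocytes (edgeR adjusted p = 0.11) and 1.94 ± 0.53 (SE, edgeR adjusted p = 0.0073) in neurons. Rpl12 reached the filter level in 4 microglia and 3 neuron libraries but in 0 input libraries. Higher values there were thus partly built into its being tested. Rpl38, a protein whose loss in mice alters the translation of Hox mRNAs, had 222, 163, 243 and 241 CPM in microglia, 197, 201, 147 and 407 in astrocytes and 396, 517, 488 and 170.5 in neurons, against 84.2, 107, 111 and 76.7 in input. Its differences were 1.20 ± 0.30 (SE, edgeR adjusted p = 0.0012) in microglia, 1.304 ± 0.31 (SE, edgeR adjusted p = 0.0015) in astrocytes and 2.05 ± 0.31 (SE, edgeR adjusted p = 1.5e-05) in neurons, and no sorted library overlapped the input. Rpl13 had 160.3, 149, 324 and 219 CPM in microglia, 114, 144, 76.1 and 160.02 in astrocytes and 220, 465, 291 and 1030.1 in neurons, against 71.5, 89.4, 84.4 and 89.5 in input. The 1030.1 CPM of neurons 5 was the highest value of all 16 libraries. Neurons 5 was also the highest library for Rpl26, at 1883 CPM, and Rpl37, at 1492 CPM.

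Other large-subunit genes fell in astrocytes. Rpl39, which lines the tunnel through which new proteins leave, had 139.6, 76.4, 152 and 176 CPM in microglia, 22.8, 36.1, 50.7 and 50.3 in astrocytes and 79.2, 114, 93.5 and 124 in neurons, against 109, 134, 116 and 128 in input. All astrocyte libraries were below all others, and the log2 fold change over input was -1.59 ± 0.31 (SE, edgeR adjusted p = 1.9e-04) in astrocytes, with 0.17 in microglia and -0.21 in neurons, neither called. Rpl14 had 124, 115, 132 and 117 CPM in microglia, 51.4, 61.9, 52.4 and 45.7 in astrocytes and 79.2, 124, 83.1 and 281 in neurons, against 105, 151, 116 and 141 in input. It fell by 1.29 ± 0.32 on the log2 scale in astrocytes (SE, edgeR adjusted p = 0.0023). The other 3 lower calls in astrocytes, Rpl13a, Rpl32 and Rpl37a, were smaller and less steady, at -1.056, -0.82 and -0.74, and leaving out astrocytes 4 ended each of them (edgeR adjusted p = 0.14, 0.15 and 0.23 in that order). The Rpl37a call was also lost with the animal as a block (-0.74, edgeR adjusted p = 0.051). Rpl5, which carries the 5S rRNA into the large subunit, had 20.7, 15.3, 29.4 and 39.5 CPM in microglia, 5.71, 20.6, 18.6 and 4.57 in astrocytes and 26.4, 28.4, 10.4 and 7.10 in neurons, against 21.9, 25.8, 20.6 and 30.3 in input. It was called in no group, with 0.18 in microglia, -0.93 in astrocytes and -0.44 in neurons. Rpl15 likewise had no call, at -0.36, -0.26 and 0.65 in the same order.

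Among the small-subunit genes, Rps16 had one of the largest differences in neurons. Rps16, whose tail touches the tRNA in the peptidyl site, had 36.2, 64.5, 162 and 146 CPM in microglia, 14.3, 41.3, 59.2 and 22.9 in astrocytes and 352, 139, 46.7 and 3.55 in neurons, against 8.84, 12.7, 9.49 and 8.53 in input. Neurons 5 was the lowest neuron library, below every input library. The differences were 3.44 ± 0.55 (SE, edgeR adjusted p = 4.1e-06) in microglia, 1.86 ± 0.63 (SE, edgeR adjusted p = 0.022) in astrocytes and 3.58 ± 0.59 (SE, edgeR adjusted p = 5.3e-05) in neurons. The astrocyte call of Rps16 was lost when astrocytes 4 or input 2 was left out, at most to a log2 of 1.41 and an edgeR adjusted p of 0.2 without astrocytes 4. Neurons 5 thus had the lowest level of the neurons for Rps16, Rpl30, Rpl23 and Rpl38, and the highest for Rpl13, Rpl26, Rpl37 and Rps20. No label sets that library apart. Its counts did, with the lowest shares among the neurons of mitochondrially encoded transcripts (14.3%) and T and NK markers (0.0592%). Its microglia-marker (0.249%) and astrocyte-marker (0.536%) shares were the lowest of the neurons too. The part of these in the levels was not tested.

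Rps13 and Rps4x were higher than input in microglia and neurons. Rps13 had 46.5, 62.8, 36.5 and 48.3 CPM in microglia, 5.71, 25.8, 13.5 and 4.57 in astrocytes and 17.6, 23.2, 0 and 10.7 in neurons, against 4.21, 0.688, 7.38 and 2.98 in input. Its log2 fold change was 3.69 ± 0.50 (SE, edgeR adjusted p = 3.4e-07) in microglia and 1.90 ± 0.71 (SE, edgeR adjusted p = 0.047) in neurons, and every microglia library was above every other library. The neuron call of Rps13 rested on few counts and was lost in 8 of 16 fits without 1 library, at most to 1.21 (edgeR adjusted p = 0.43) without neurons 3. With the animal as a block it was lost too (1.80, edgeR adjusted p = 0.094). Rps4x, encoded on the X chromosome, had 72.4, 39.0, 122 and 80.5 CPM in microglia, 17.1, 10.3, 42.3 and 4.57 in astrocytes and 149.6, 67.1, 119 and 17.8 in neurons, against 10.9, 12.03, 8.97 and 5.97 in input. It differed from input by 3.05 ± 0.44 (SE, edgeR adjusted p = 9.8e-07) in microglia and 3.06 ± 0.49 (SE, edgeR adjusted p = 3.2e-05) in neurons. No microglia or neuron library of Rps4x overlapped the input. Both Rps13 and Rps4x reached the filter level in 4 microglia libraries but in 0 input libraries. Higher values than input were thus partly built into their being tested. Neither gene was called in astrocytes, where Rps13 stood at 1.67 and Rps4x at 1.23, and astrocytes 5 had a lower Rps4x level than every input library. Rps3, at the entry of the mRNA channel, had 569, 441, 973 and 805 CPM in microglia, 342, 366, 389 and 389 in astrocytes and 880.02, 904, 1194 and 533 in neurons, against 253, 378, 316 and 341 in input. Its difference was 1.12 ± 0.27 (SE, edgeR adjusted p = 7.9e-04) in microglia and 1.44 ± 0.28 (SE, edgeR adjusted p = 2.7e-04) in neurons, with no overlap with input, and 0.21 in astrocytes (edgeR adjusted p = 0.59). Rps21 had 724, 815, 1622 and 1317 CPM in microglia, 599, 825, 490.3 and 914 in astrocytes and 1320.03, 1601, 1350.1 and 817 in neurons, against 362, 481, 406 and 362 in input. It was higher than input in all 3 groups, by 1.48 ± 0.29 (SE, edgeR adjusted p = 7.4e-05) in microglia, 0.80 ± 0.29 (SE, edgeR adjusted p = 0.031) in astrocytes and 1.66 ± 0.29 (SE, edgeR adjusted p = 1.2e-04) in neurons. No sorted library of Rps21 overlapped the input, but its astrocyte call was lost when astrocytes 3 or 5 or input 2, 4 or 5 was left out, at most to a log2 of 0.65 and an edgeR adjusted p of 0.1 without astrocytes 5.

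Rps14, among the most counted members, had no call against input. It had 879, 543, 1115 and 878 CPM in microglia, 457, 722, 456 and 686 in astrocytes and 1408, 826, 1246 and 1279 in neurons, against 799.6, 928, 633 and 810.1 in input. The differences of 0.11 in microglia, -0.46 in astrocytes and 0.58 in neurons were not called. Rps20 had 621, 407, 811 and 688 CPM in microglia, 263, 325, 203 and 402 in astrocytes and 704, 801, 727 and 1883 in neurons, against 547, 619, 580.1 and 597 in input. It was lower in astrocytes, at -0.99 ± 0.31 (SE, edgeR adjusted p = 0.012), and higher in neurons, at 0.82 ± 0.30 (SE, edgeR adjusted p = 0.042). The neuron difference fell to 0.34 (edgeR adjusted p = 0.38) without neurons 5 and was lost with the animal as a block (0.71, edgeR adjusted p = 0.078). The astrocyte call of Rps20 was lost when astrocytes 2 or 4 was left out, at most to a log2 of -0.71 and an edgeR adjusted p of 0.12 without astrocytes 4. Rps18 had 56.9, 35.7, 73.0 and 66.6 CPM in microglia, 11.4, 10.3, 25.4 and 13.7 in astrocytes and 44.0, 56.8, 125 and 35.5 in neurons, against 50.5, 51.6, 52.7 and 46.9 in input. It fell by 1.57 ± 0.41 on the log2 scale in astrocytes (SE, edgeR adjusted p = 0.0035), with no astrocyte library at an input level. Rps28 was lower in astrocytes as well, at -1.16 ± 0.38 (SE, edgeR adjusted p = 0.018), a call that was lost when astrocytes 2 or 4 was left out, at most to a log2 of -0.65 and an edgeR adjusted p of 0.22 without astrocytes 4. Rps2, near the mRNA entry, had no call, at -0.35, -0.72 and -0.13 in microglia, astrocytes and neurons.

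All 3 stalk genes were higher in microglia than in input and than in astrocytes. Rplp0, the anchor of the stalk, had 517, 357, 395 and 380.4 CPM in microglia, 163, 77.3, 120.04 and 242 in astrocytes and 739, 309.9, 405 and 533 in neurons, against 239.9, 227, 264 and 213 in input. Rplp1 had 776, 611, 882 and 878 CPM in microglia, 265, 196, 219.8 and 201 in astrocytes and 880.02, 491, 727 and 746 in neurons, against 383, 550.1, 527 and 401 in input. Rplp2, which forms dimers with Rplp1, had 46.5, 221, 395 and 337 CPM in microglia, 71.4, 67.0, 86.2 and 96.0 in astrocytes and 96.8, 284, 332 and 53.3 in neurons, against 96.8, 107, 94.9 and 85.3 in input. Over input, the log2 fold changes in microglia were 0.79 ± 0.28 (SE, edgeR adjusted p = 0.016) for Rplp0, 0.76 ± 0.25 (SE, edgeR adjusted p = 0.0094) for Rplp1 and 1.44 ± 0.39 (SE, edgeR adjusted p = 0.0021) for Rplp2. In astrocytes only Rplp1 was called, at -1.07 ± 0.26 (SE, edgeR adjusted p = 0.0015), with all its astrocyte libraries below all input libraries. In neurons only Rplp0 was called, at 1.05 ± 0.28 (SE, edgeR adjusted p = 0.0066). Microglia against astrocytes gave 1.45 ± 0.30 (SE, edgeR adjusted p = 1.4e-04) for Rplp0, 1.83 ± 0.26 (SE, edgeR adjusted p = 6.0e-07) for Rplp1 and 1.69 ± 0.43 (SE, edgeR adjusted p = 0.0015) for Rplp2. Astrocytes against neurons gave -1.70 ± 0.30 (SE, edgeR adjusted p = 6.2e-05), -1.67 ± 0.26 (SE, edgeR adjusted p = 1.3e-05) and -1.28 ± 0.45 (SE, edgeR adjusted p = 0.031) in the same order. Rplp2 varied within groups, with microglia 2 and neurons 5 below every input library and neurons 2 within the input range. Its call in astrocytes against neurons was lost when astrocytes 2, 3 or 4 or neurons 3 or 4 was left out, at most to a log2 of -1.0004 and an edgeR adjusted p of 0.15 without neurons 3. Without animal 5 the microglia call of Rplp1 was lost (0.63, edgeR adjusted p = 0.080), and without input 5 that of Rplp0 (0.74, edgeR adjusted p = 0.052).

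**Figure D3:**
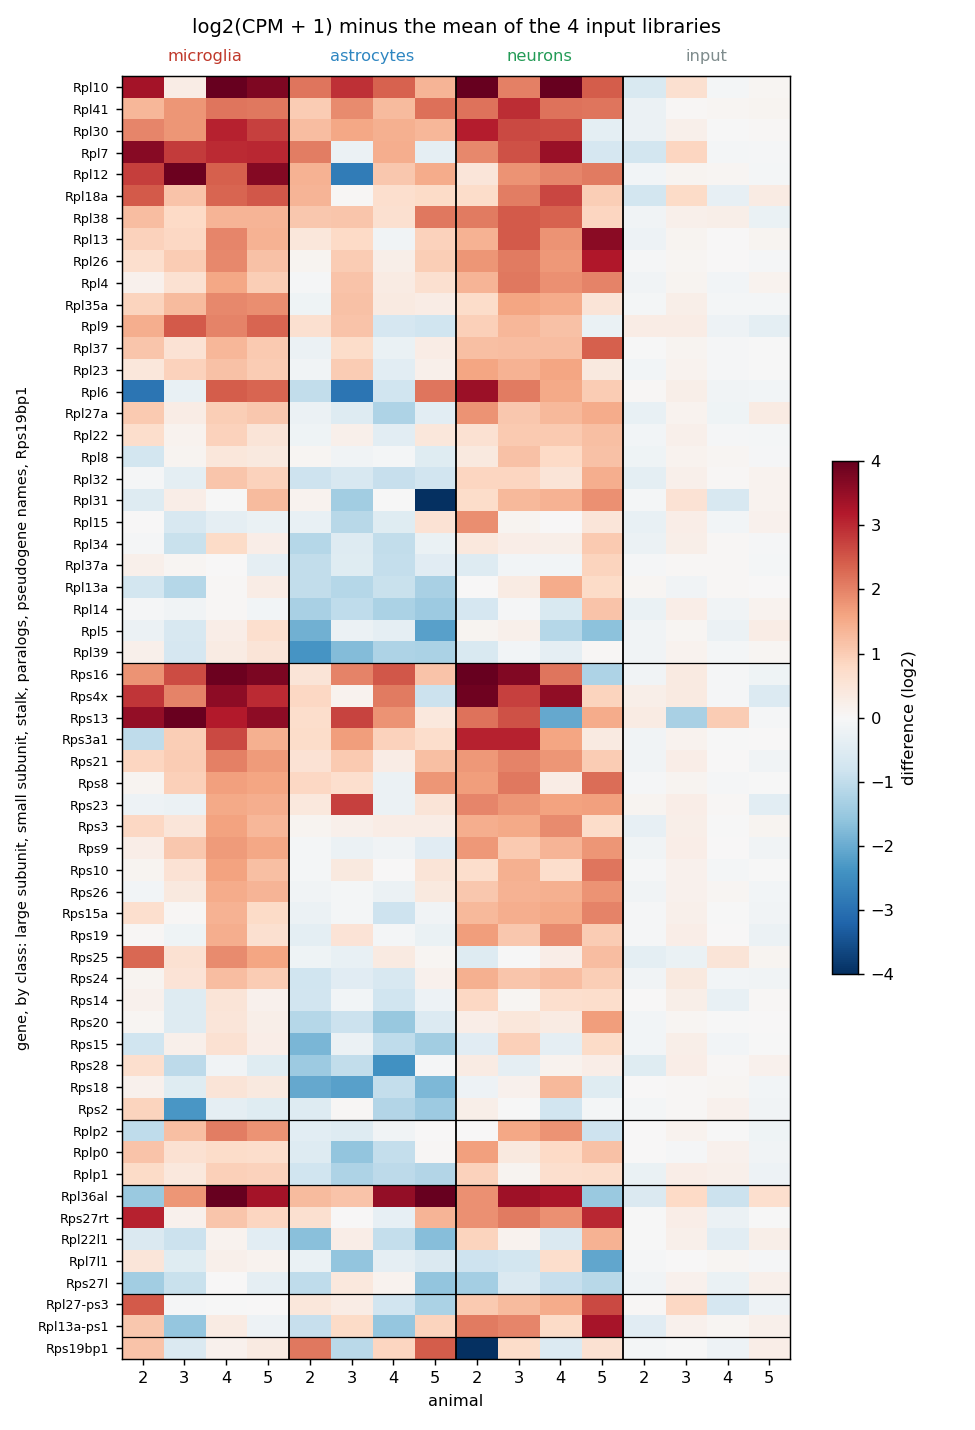
Level of 59 of the 61 tested members (rows, by class) in each of the 16 libraries (columns, by group and animal), as log2(CPM + 1) minus the mean of the 4 input libraries; red is higher and blue lower. Most rows are red in microglia and neurons and mixed in astrocytes, where 9 members were called higher and 11 lower, and the column of neurons 5 differs from the other neurons in rows such as Rps16 and Rpl30.

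To find single genes that depart from the rest of the family, each member was also scaled to the summed counts of the 93 genes, so that a change shared by all cancels. On that scale 13 members stood above the family sum and 11 below it in microglia against input, with 8.04% and 48.5% of all 9091 genes above and below on this scale. In astrocytes 9 stood above and 6 below (14.8% and 13.6% of all genes), and in neurons 12 above and 13 below (1.92% and 68.2%). Members above the sum in each of the 3 comparisons included Rpl10, Rpl30, Rpl41 and Rps16. The Rpl10 departure in astrocytes was lost without astrocytes 4 (log2 2.74, edgeR adjusted p = 0.079). That of Rpl30 in neurons was lost without neurons 2 (log2 0.88, edgeR adjusted p = 0.051). Rpl14 and Rps28 were below it in each. Because the comparisons share the input libraries, the repeated calls are not independent.

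Relative to the sum, Rps16 differed from input by 2.5003 ± 0.54 (SE, edgeR adjusted p = 1.3e-04) in microglia, 1.96 ± 0.60 (SE, edgeR adjusted p = 0.011) in astrocytes and 2.37 ± 0.57 (SE, edgeR adjusted p = 4.6e-04) in neurons. The astrocyte departure of Rps16 was lost without astrocytes 4 (log2 1.29, edgeR adjusted p = 0.21). Rpl41 stood 1.07, 1.67 and 1.15 above the sum in the same order. Rpl12 and Rps13 departed in microglia, at 2.81 ± 0.49 (SE, edgeR adjusted p = 6.0e-06) and 2.91 ± 0.57 (SE, edgeR adjusted p = 3.6e-05). Rps4x departed in microglia and neurons, at 2.14 ± 0.48 (SE, edgeR adjusted p = 2.1e-04) and 1.83 ± 0.51 (SE, edgeR adjusted p = 0.0019). Rpl12, Rps13, Rps4x and Rps16 each reached the filter level in 4 microglia libraries but in 0 input libraries. A higher value in sorted cells than in input was thus partly built into their being tested. On the low side, Rpl14 differed by -0.86 ± 0.34 (SE, edgeR adjusted p = 0.028) in microglia, -1.19 ± 0.37 (SE, edgeR adjusted p = 0.012) in astrocytes and -1.12 ± 0.35 (SE, edgeR adjusted p = 0.0049) in neurons. Rps28 differed by -0.998 ± 0.37 (SE, edgeR adjusted p = 0.02), -1.09 ± 0.40 (SE, edgeR adjusted p = 0.034) and -1.22 ± 0.38 (SE, edgeR adjusted p = 0.0052). Leaving out 1 library ended the Rps28 calls in astrocytes (edgeR adjusted p up to 0.18, without astrocytes 4) and in microglia (up to 0.1, without microglia 5), and the Rpl14 call in microglia (up to 0.096, without microglia 5). Rpl39 and Rps18 were below the sum in astrocytes, at -1.505 ± 0.35 (SE, edgeR adjusted p = 0.0012) and -1.48 ± 0.46 (SE, edgeR adjusted p = 0.013). Rps2 was below it in microglia and neurons, at -1.14 ± 0.41 (SE, edgeR adjusted p = 0.017) and -1.42 ± 0.43 (SE, edgeR adjusted p = 0.0038), and Rpl5 in neurons, at -1.72 ± 0.53 (SE, edgeR adjusted p = 0.0047). Of the departures, 13 of 24 in microglia, 8 of 15 in astrocytes and 14 of 25 in neurons passed in every fit that left out 1 library.

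**Figure D4:**
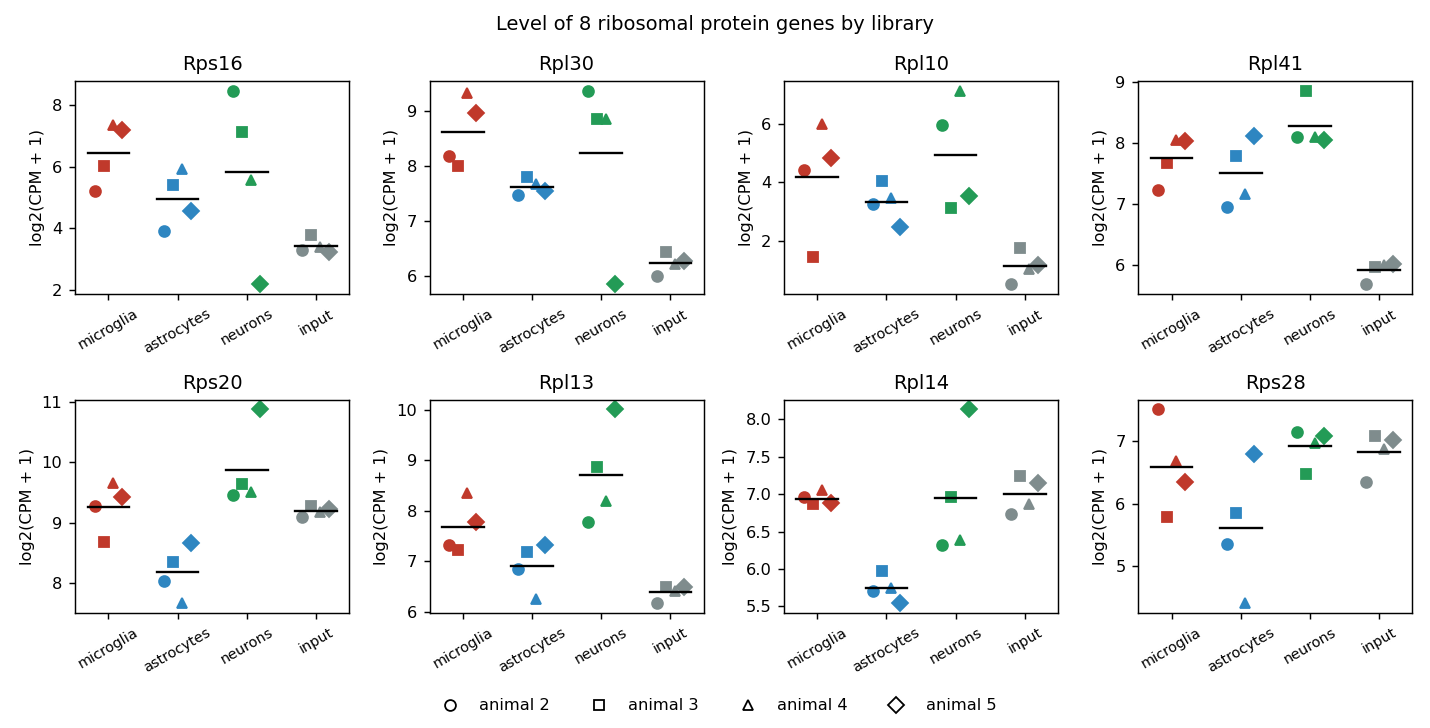
Level of 8 members (log2(CPM + 1), vertical axis) in the 16 libraries by group; points are libraries with a marker shape per animal and lines are group means of the plotted values. Rps16, Rpl30, Rpl10 and Rpl41 have their lowest group mean in input, neurons 5 lies at 56.8 CPM for Rpl30 and at 1883 CPM for Rps20, and Rpl14 and Rps28 have their lowest group mean in astrocytes.

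Among the pairs of sorted groups, the most members were called between astrocytes and neurons. Of the 61 members, 43 were lower in astrocytes than in neurons and 0 higher (median log2 fold change -1.29), while 13.7% of all genes were called lower and 14.8% higher. DESeq2 called 45 lower and 0 higher, and at an unadjusted p under 0.05 edgeR had 48 lower and 1 higher. Without astrocytes 3 or astrocytes 4, 1 member was higher. Rps18 and Rps15a stood at -1.92 and -1.91. Rpl13a-ps1, a pseudogene by name that passed the filter through its neuron libraries, stood at -2.60 ± 0.62 (SE, edgeR adjusted p = 0.0018). Microglia were higher than astrocytes for 34 members and lower for 1, Rps19bp1 (median 0.92; 0 lower without microglia 3, 4 or 5 or astrocytes 2 or 5), against 23.7% and 26.1% of all genes. Rpl12 led with 2.41 ± 0.48 (SE, edgeR adjusted p = 1.0e-04), followed by Rpl9 at 2.09 ± 0.51 (SE, edgeR adjusted p = 0.001) and Rps13 at 2.02 ± 0.58 (SE, edgeR adjusted p = 0.0043). These 3 reached the filter level in 4 microglia libraries each, but in 0, 0 and 1 astrocyte libraries in that order and in 0 input libraries. A higher value in microglia was thus partly built into their being tested. Between microglia and neurons, 4 members were higher in microglia and 12 lower (median -0.38), against 20.2% and 24.4% of all genes, so neither count exceeded the background. The first count was 2 without microglia 5 and the second 6 without microglia 3 or neurons 5. The 4 were Rpl12, at 1.59 ± 0.46 (SE, edgeR adjusted p = 0.0059), Rps13, at 1.79 ± 0.60 (SE, edgeR adjusted p = 0.015), Rpl9, at 1.303 ± 0.49 (SE, edgeR adjusted p = 0.031), and Rps25, at 1.21 ± 0.49 (SE, edgeR adjusted p = 0.046). All 4 belong to the 15 members that did not pass the filter in the input. They reached its level in 4 microglia libraries each but in 3, 1, 2 and 1 neuron libraries in the same order, so a higher value in microglia was partly built into their being tested. The Rpl9 call was lost when microglia 3 or 5 or neurons 5 was left out, at most to a log2 of 1.03 and an edgeR adjusted p of 0.11 without neurons 5. The Rps25 call was lost in 11 of 16 fits without 1 library, at most to an edgeR adjusted p of 0.15 without neurons 3, and with the animal as a block (1.15, edgeR adjusted p = 0.077). Passing in every fit without 1 library were 31 of 43 calls in astrocytes against neurons, 23 of 35 in microglia against astrocytes and 5 of 16 in microglia against neurons.

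Once scaled to the family sum, few members told the sorted cells apart. There were 4 departures above and 0 below in astrocytes against neurons (58.6% and 2.83% of all genes), 2 above and 3 below in microglia against astrocytes (9.69% and 46.3%), and 6 above and 1 below in microglia against neurons (29% and 16.2%). The second total was 8 without microglia 2 or astrocytes 4, the third 11 without microglia 2 or neurons 4, and the first 2 without astrocytes 4. Those in astrocytes against neurons were Rps19bp1, at 2.78 ± 0.56 (SE, edgeR adjusted p = 6.2e-05), and the paralogs Rps27l, at 1.9996 ± 0.45 (SE, edgeR adjusted p = 2.5e-04), Rpl36al, at 1.74 ± 0.75 (SE, edgeR adjusted p = 0.043), and Rpl7l1, at 1.31 ± 0.52 (SE, edgeR adjusted p = 0.027). The last pair of calls was lost without astrocytes 4 (Rpl36al, edgeR adjusted p = 0.22) or neurons 5 (Rpl7l1, edgeR adjusted p = 0.12), among other libraries, and that of Rpl36al with the animal as a block (1.72, edgeR adjusted p = 0.064). None of the 53 tested large-subunit, small-subunit and stalk genes departed in that comparison by edgeR.

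The paralogs were a mixed group. Rps27l had 25.9, 37.4, 71.0 and 54.1 CPM in microglia, 34.2, 92.8, 76.1 and 22.9 in astrocytes and 26.4, 46.5, 36.3 and 31.97 in neurons, against 63.1, 79.1, 58.0 and 81.0 in input. It had no call against input at -0.48, -0.31 and -0.93 in microglia, astrocytes and neurons. Its near copies moved otherwise: Rps27rt had 445, 57.7, 111 and 95.1 CPM in microglia, 79.9, 51.6, 40.6 and 133 in astrocytes and 185, 219.5, 187 and 426 in neurons, against 50.5, 61.9, 43.8 and 51.2 in input. Rps27rt differed from input by 1.61 ± 0.42 (SE, edgeR adjusted p = 0.0015) in microglia and 2.32 ± 0.42 (SE, edgeR adjusted p = 1.6e-04) in neurons, and the microglia difference was 0.91 without microglia 2. Rps27 itself was listed with only 47 counts over the 16 libraries, against 1216 for Rps27rt, whose last coding bases are the same. Rpl36al had 0, 8.49, 43.6 and 27.1 CPM in microglia, 5.71, 5.16, 30.4 and 45.7 in astrocytes and 8.80, 28.4, 26.0 and 0 in neurons, against 0.842, 3.78, 0.527 and 3.41 in input. Its differences of 3.33 ± 0.66 (SE, edgeR adjusted p = 8.3e-05) in microglia, 3.23 ± 0.75 (SE, edgeR adjusted p = 0.0012) in astrocytes and 2.84 ± 0.86 (SE, edgeR adjusted p = 0.015) in neurons rest on 155 counts in all; the neuron call was lost without neurons 3 (log2 2.16, edgeR adjusted p = 0.22). Its parent Rpl36a had 52 counts and was not tested. Rpl22l1 had no call against input (-0.38, -0.93 and 0.61), whereas its parent Rpl22 was higher in microglia, by 0.60 ± 0.24 (SE, edgeR adjusted p = 0.04), and in neurons, by 1.001 ± 0.25 (SE, edgeR adjusted p = 0.0037). The microglia call of Rpl22 was lost when microglia 5 or input 2, 4 or 5 was left out, at most to a log2 of 0.55 and an edgeR adjusted p of 0.1 without input 2. It was also lost with the animal as a block (0.60, edgeR adjusted p = 0.057). Rpl7l1 was uncalled against input (0.09, -0.54 and -0.49), and its parent Rpl7 was higher in microglia, by 3.09 ± 0.46 (SE, edgeR adjusted p = 1.7e-06), and in neurons, by 2.38 ± 0.55 (SE, edgeR adjusted p = 0.002). Rpl7 reached the filter level in 4 microglia, 3 neuron and 0 input libraries, and Rpl7l1 in 4 input libraries. The higher values of Rpl7 were thus partly built into its being tested. Of the Rpl7 windows in the last 300 bases, 78% occur in other genes. Rpl39l had 11 counts in microglia and 18 in input and was listed at 0 in every astrocyte and neuron library. Rpl3l had 1 count and Rpl10l none, and Rpl3, the parent of Rpl3l, had 154 counts and was not tested.

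Both tested genes with pseudogene names were higher in neurons than in input, Rpl13a-ps1 by 2.40 ± 0.48 (SE, edgeR adjusted p = 4.4e-04) and Rpl27-ps3 by 1.74 ± 0.52 (SE, edgeR adjusted p = 0.014). Each reached the filter level in all 4 neuron libraries, against at most 1 library of any other group, so a higher value in neurons was built into their being tested. The second call was lost when neurons 5 or input 4 was left out, at most to a log2 of 1.21 and an edgeR adjusted p of 0.16 without neurons 5. Rpl13a-ps1 had 25.9, 3.40, 15.2 and 10.2 CPM in microglia, 5.71, 20.6, 3.38 and 22.9 in astrocytes and 52.8, 49.1, 20.8 and 124 in neurons, against 8.42, 13.4, 12.7 and 13.6 in input. Neurons 5 was the highest library. The parent Rpl13a had 20.7, 15.3, 36.5 and 43.2 CPM in microglia, 17.1, 15.5, 18.6 and 13.7 in astrocytes and 35.2, 43.9, 98.7 and 60.4 in neurons, against 36.6, 31.6, 36.4 and 35.4 in input. It was lower than input in astrocytes at -1.056 ± 0.42 (SE, edgeR adjusted p = 0.048) and uncalled in neurons at 0.77. Reads of a parent and its copies may be split between them. Rps19bp1 had 51.7, 15.3, 26.4 and 29.996 CPM in microglia, 103, 10.3, 42.3 and 128 in astrocytes and 0, 38.7, 15.6 and 35.5 in neurons, against 21.9, 23.0, 20.04 and 28.1 in input. It was higher in astrocytes than in input by 1.59 ± 0.44 (SE, edgeR adjusted p = 0.0053) with levels that ran from 10.3 to 128 CPM among the astrocytes.

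The 32 members that were not tested include genes for proteins that every ribosome holds. They comprise 16 large-subunit genes, 8 small-subunit genes, 3 paralogs and 5 genes with pseudogene names. Rps6 was listed with 6 counts over the 16 libraries, 1 in astrocytes 3 and 5 in neurons 4, Rpl10a with 3 and Rpl24 with 5. Rpsa had 200, Rpl29 187 and Rps12 183. Low counts went with shared 3′ sequence. Matches to genes that overlap the gene's own position were left out of the shared percents. Of the 77 large-subunit, small-subunit and stalk genes, 69 (89.6%) shared at least 1 window of 65 bases near the transcript end with another annotated gene, against 15.5% of 21780 genes, and 33 (42.9%) shared 50% or more of their windows, against 5.47%. All 15 genes with under 10% shared were tested and their median was 2178 counts over the 16 libraries. Rpl5 is among these 15, though 100% of its windows occur in an overlapping gene. Of the 29 genes with 10% to under 50% shared, 24 were tested (median 1794 counts). Of the 33 with 50% or more, 14 were tested (median 154 counts) and 15 had under 100 counts. Across the 77 genes, Spearman's rho between the shared percent and total counts was -0.61, as a description over genes that share libraries. Across the 53 tested ones, rho between the shared percent and the departure from the family sum was 0.28 in microglia, 0.28 in astrocytes and 0.21 in neurons. The part of read assignment in the levels was not tested.

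**Figure D5:**
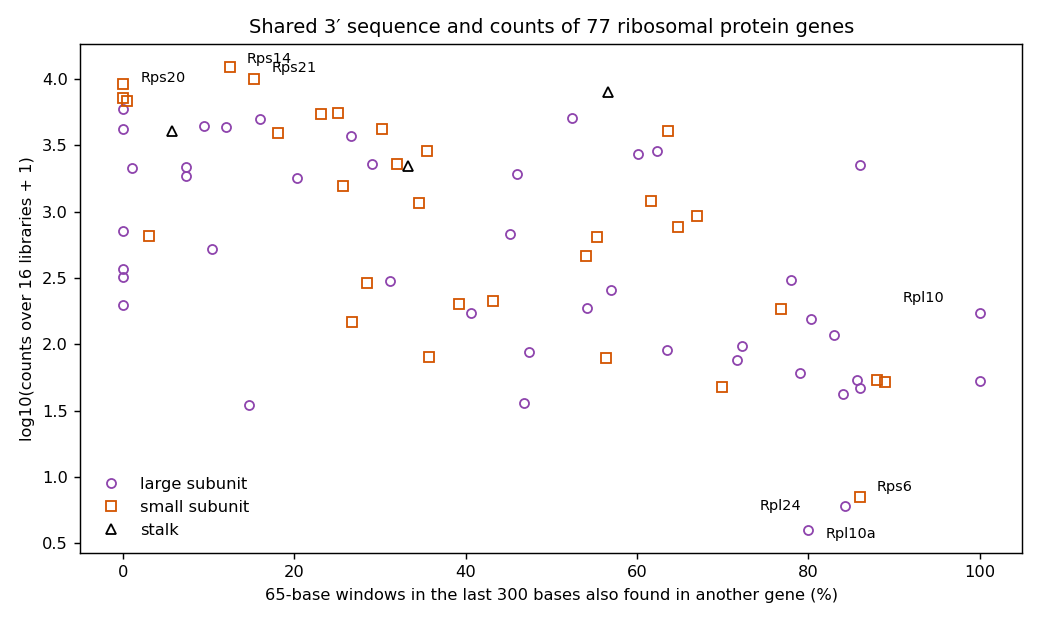
Percent of 65-base windows in the last 300 transcript bases that also occur in another gene (horizontal axis) against log10 of the counts over the 16 libraries plus 1 (vertical axis) for the 77 large-subunit, small-subunit and stalk genes. Matches to overlapping genes were left out. Genes with under 10% shared run from Rpl6 (195 counts) to Rps20 (9123 counts), and the genes with the fewest counts, such as Rps6 (6) and Rpl10a (3), lie to the right.

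The genes that make and run ribosomes did not all follow the ribosomal proteins. For scale, 24.1%, 16.3% and 11.2% of all genes were called higher than input in microglia, astrocytes and neurons, and 29.8%, 19.1% and 13.7% lower. List counts of 3 or fewer could move by more than 1.5 times with 1 library left out. Of 7 tested elongation factors, there were 1 higher and 1 lower in microglia, 1 higher and 1 lower in astrocytes and 5 higher and 0 lower in neurons (median log2 fold changes 0.19, -0.11 and 0.97). In neurons 0 were lower at an unadjusted p under 0.05 by edgeR too, and 0 by DESeq2. Eef1a2, the eEF1A form of mature neurons and muscle, had 5.17, 6.79, 2.03 and 3.66 CPM in microglia, 2.85, 5.16, 1.69 and 4.57 in astrocytes and 44.0, 116, 83.1 and 114 in neurons, against 26.5, 37.8, 27.4 and 42.6 in input. It was lower in microglia and astrocytes, with -3.06 ± 0.46 (SE, edgeR adjusted p = 1.9e-06) and -3.43 ± 0.60 (SE, edgeR adjusted p = 4.6e-05), and higher in neurons, at 1.48 ± 0.34 (SE, edgeR adjusted p = 0.0017). Eef2, which moves the ribosome along, was higher in neurons, at 1.12 ± 0.24 (SE, edgeR adjusted p = 7.9e-04), with 0.19 in microglia and -0.11 in astrocytes, both uncalled. Eef1b2, the exchange factor of eEF1A, was higher in microglia, at 0.65 ± 0.27 (SE, edgeR adjusted p = 0.043), and in neurons, at 0.93 ± 0.28 (SE, edgeR adjusted p = 0.013). Eef1g was called in neurons, at 0.99 ± 0.33 (SE, edgeR adjusted p = 0.026), Eef1d in astrocytes and neurons, at 0.68 and 0.94, and Eef1a1 in none, at 0.81, -0.68 and 0.97 in microglia, astrocytes and neurons. Eif5a stood at -0.13, 0.15 and 0.24, uncalled, and Eif5a2, listed too, was not tested. The Eef1b2 call in microglia was lost when microglia 4 or 5 or input 2, 4 or 5 was left out, at most to a log2 of 0.57 and an edgeR adjusted p of 0.12 without input 2. The Eef1g call in neurons was lost when neurons 5 or input 3, 4 or 5 was left out, at most to a log2 of 0.46 and an edgeR adjusted p of 0.33 without neurons 5. The Eef1d call in astrocytes was lost when microglia 3 or 5, astrocytes 2 or 5, neurons 3 or input 2, 3, 4 or 5 was left out, at most to a log2 of 0.45 and an edgeR adjusted p of 0.21 without astrocytes 5. The Eef1b2 call in neurons was lost without input 2 (log2 0.85, edgeR adjusted p = 0.052). With the animal as a block the calls of Eef1b2 in microglia (0.64, edgeR adjusted p = 0.052), Eef1d in astrocytes (0.66, edgeR adjusted p = 0.083) and Eef1g in neurons (0.93, edgeR adjusted p = 0.054) were lost.

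Of 32 tested initiation factors, there were 4 higher and 4 lower in microglia, 3 higher and 7 lower in astrocytes and 6 higher and 2 lower in neurons (medians 0.03, 0.02 and 0.24). With 1 library left out, the 4 lower in microglia became 1 without microglia 4 and 2 without microglia 2 or 3, astrocytes 2 or 4 or input 3 or 5. Likewise, the 7 lower in astrocytes became 3 without astrocytes 4. Eif4g3, a scaffold of the cap complex, was the largest rise in microglia and astrocytes, at 1.56 ± 0.31 (SE, edgeR adjusted p = 9.1e-05) and 1.94 ± 0.32 (SE, edgeR adjusted p = 2.2e-05). Pabpc1, the cytoplasmic poly(A)-binding protein, had 621, 187, 253 and 205 CPM in microglia, 79.9, 103, 44.0 and 96.0 in astrocytes and 202, 248, 140.2 and 149 in neurons, against 194, 241, 232 and 264 in input. It fell by 1.59 ± 0.34 on the log2 scale in astrocytes (SE, edgeR adjusted p = 5.2e-04). Among 17 tested genes, other than ribosomal proteins, whose mRNAs are known to carry TOP motifs, there were 6 higher and 3 lower in microglia, 2 higher and 4 lower in astrocytes and 9 higher and 1 lower in neurons (medians 0.32, -0.47 and 0.94). This list holds 5 of the elongation factors. There, the 6 higher in microglia became 3 without input 2 or 4. Gnb2l1, the older symbol of Rack1, a scaffold on the small subunit, had 931, 543, 933 and 805 CPM in microglia, 285, 304, 219.8 and 389 in astrocytes and 968, 826, 1142 and 1243 in neurons, against 421, 516, 443 and 469 in input. Its log2 fold change was 0.79 ± 0.25 (SE, edgeR adjusted p = 0.0082) in microglia and 1.18 ± 0.25 (SE, edgeR adjusted p = 1.0e-03) in neurons, and -0.64 in astrocytes (edgeR adjusted p = 0.053). Hnrnpa1, a splicing factor, was higher in all 3 groups, by 4.62 ± 0.42 (SE, edgeR adjusted p = 7.5e-10) in microglia, 1.88 ± 0.53 (SE, edgeR adjusted p = 0.0057) in astrocytes and 2.56 ± 0.51 (SE, edgeR adjusted p = 4.3e-04) in neurons. The neuron call was lost without neurons 3 (log2 1.40, edgeR adjusted p = 0.16). Vim, an intermediate filament gene, was lower in all 3, at -1.9998, -1.02 and -1.10.

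The ribosomal proteins of mitochondria, encoded in the nucleus for a separate ribosome, showed another pattern. Of 66 tested, there were 5 higher and 7 lower in microglia, 17 higher and 0 lower in astrocytes and 5 higher and 0 lower in neurons (medians -0.14, 0.61 and 0.04), and 20 were lower in microglia than in astrocytes with 0 higher, against 26.1% lower and 23.7% higher of all genes, so the lower share was near the background. In astrocytes edgeR called 0 lower with 2 at an unadjusted p under 0.05, and DESeq2 0. For microglia above astrocytes these were 0, 0 and 0. In neurons the 0 lower stood beside 2 at an unadjusted p under 0.05 and 0 by DESeq2. With 1 library left out, the 5 higher in microglia became 3 without microglia 5 or input 2, 4 or 5. The 7 lower in microglia became 3 without microglia 2 and 4 without microglia 3, astrocytes 2 or 4 or input 3 or 5. The 17 higher in astrocytes became 9 without input 4 or 5 and 10 without input 2. The 5 higher in neurons became 2 without neurons 3 or 5, 3 without input 2, 3, 4 or 5 and 8 without neurons 2. Mrps6 had 36.2, 25.5, 20.3 and 26.3 CPM in microglia, 137, 72.2, 157 and 174 in astrocytes and 35.2, 33.6, 67.5 and 128 in neurons, against 92.6, 79.1, 89.7 and 93.8 in input. It fell by 1.80 ± 0.34 on the log2 scale in microglia (SE, edgeR adjusted p = 5.1e-05), with no microglia library at an input level. Mrpl52, one of the most counted of the list, was higher in all 3 groups, at 1.36, 1.26 and 1.20, the last lost without neurons 3 (log2 1.08, edgeR adjusted p = 0.057). As a share of counts the list took 0.194 to 0.229% in microglia, 0.281 to 0.318% in astrocytes and 0.216 to 0.276% in neurons, against 0.248 to 0.264% in input. The astrocytes were thus the group with the highest mitochondrial and the lowest cytosolic ribosomal protein share.

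Genes of ribosome assembly were called higher more often than lower in microglia and neurons. Of 32 tested, there were 9 higher and 1 lower in microglia, 3 higher and 3 lower in astrocytes and 8 higher and 0 lower in neurons (medians 0.48, -0.02 and 0.52). Of all genes, 24.1% were called higher and 29.8% lower in microglia, so the higher count there was near the background. In neurons 11.2% of all genes were called higher and 13.7% lower. Beside the 0 lower in neurons, 1 was lower at an unadjusted p under 0.05 by edgeR and 0 by DESeq2. With 1 library left out, the 9 higher in microglia became 5 without microglia 5 or input 2, 3 or 5. Likewise, the 8 higher in neurons became 4 without input 5 and 5 without neurons 4 or input 3. Tcof1, a cofactor of rRNA transcription, was higher in microglia, at 1.85 ± 0.36 (SE, edgeR adjusted p = 5.9e-05), and in neurons, at 1.42 ± 0.42 (SE, edgeR adjusted p = 0.013). The neuron call was lost without neurons 4 (log2 1.18, edgeR adjusted p = 0.061). Gar1, of the box H/ACA particles that modify rRNA, was highest in neurons, at 2.23 ± 0.46 (SE, edgeR adjusted p = 5.6e-04). Sbds, which frees the large subunit for joining, was higher in all 3, at 1.39, 1.95 and 0.90, the last lost when neurons 2, 3 or 4 or input 2, 4 or 5 was left out, at most to a log2 of 0.71 and an edgeR adjusted p of 0.19 without neurons 3. It was also lost with the animal as a block (0.88, edgeR adjusted p = 0.057). Ncl, encoding nucleolin, had no call against input, at -0.21, -0.37 and 0.54. Among 19 regulators of mTORC1 and of TOP mRNAs, there were 11 higher and 1 lower in microglia, 7 higher and 2 lower in astrocytes and 3 higher and 0 lower in neurons (medians 0.90, 0.24 and -0.18). In neurons, 1 was lower at an unadjusted p under 0.05 by edgeR and 0 by DESeq2. With 1 library left out, the 7 higher in astrocytes became 4 without astrocytes 4 or input 5. Lamtor2, which tethers mTORC1 to lysosomes, had 103, 187, 223 and 198 CPM in microglia, 254, 268, 254 and 183 in astrocytes and 167, 284, 151 and 316 in neurons, against 23.1, 28.9, 20.6 and 19.6 in input. Every sorted library was above every input library, with 2.97 ± 0.29 (SE, edgeR adjusted p = 1.5e-09) in microglia, 3.37 ± 0.29 (SE, edgeR adjusted p = 2.0e-09) in astrocytes and 3.34 ± 0.30 (SE, edgeR adjusted p = 2.2e-09) in neurons. Rptor, the substrate-binding subunit of mTORC1, was higher in microglia, at 2.52 ± 0.32 (SE, edgeR adjusted p = 1.6e-07), and in astrocytes, at 1.01 ± 0.37 (SE, edgeR adjusted p = 0.032). The second call was lost when astrocytes 4 or 5 or input 2, 3 or 5 was left out, at most to a log2 of 0.81 and an edgeR adjusted p of 0.12 without input 3. Larp1 was higher in microglia, at 1.01 ± 0.34 (SE, edgeR adjusted p = 0.011), and uncalled in astrocytes and neurons, at 0.10 and 0.70. Mtor was higher in astrocytes alone among the comparisons with input, at 1.52 ± 0.34 (SE, edgeR adjusted p = 8.4e-04), with 0.11 in microglia and 0.48 in neurons.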

How the data were processed

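Libraries were made with a 3′ tag kit with molecular identifiers from sorted cells and input, 4 per group, from separate animals, per the labels' protocols. Tools named by the submitters' processing notes, with no roles given, were edgeR, featureCounts and Subread 1.6.2 and STAR, and the build was GRCm38.p6. How multi-mapped reads were treated is not given in the sources used here. The values analysed are the authors' deposited counts per gene. All 28936 deposited counts of 100 or more have at most 2 significant digits, so each carries a rounding error of up to 5%. The authors also deposited a table of normalized values, whose unit is not stated and which is used only as a signal in an alternative, library totals that include counts outside the table, and normalization factors as a ratio, which were not used.

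From the counts, shares of each library were computed with exact (Clopper-Pearson) 95% intervals, which cover counting error only. Differences were tested with edgeR 4.0.16 (R 4.3.3, limma 3.58.1), by the two-sided quasi-likelihood test with TMM scaling and Benjamini-Hochberg adjustment over the 9091 genes that passed filterByExpr (20.1 CPM in at least 4 libraries), with all 16 libraries in 1 fit and 6 comparisons. A second fit scaled each library to the summed counts of the 93 members. DESeq2 1.42.0, other scalings, filters, denominators and sample sets were alternatives. The scripts were tested on simulated data.

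The members and all gene lists were chosen with earlier results of these data known. Named were the 6 members with the highest mean level, up to 4 with the largest and 4 with the smallest change relative to the family sum in each comparison, the paralogs with their parents, and Rps19bp1. Of the other lists the 3 most counted genes, those with the largest changes and all elongation factors could be named. Outside this rule, and chosen after their values were seen, were Rpl6, Rpl13, Rpl13a, Rpl23, Rpl26, Rpl27-ps3, Rpl27a, Rpl30, Rpl32, Rpl35a, Rpl37, Rpl37a, Rpl41, Rplp0, Rplp2, Rps10, Rps15a, Rps27rt, the untested Rpl10a, Rpl24, Rpl29, Rps6, Rps12 and Rpsa, and Larp1, Mtor and Rptor. The family counts, shares and medians include 2 members that are not reported by name here. Since the same animals gave a library to every group, the animal numbers pair the libraries; the deviations from the group means correlated at -0.087 to 0.105 between libraries of the same animal (24 pairs) and at -0.116 to 0.141 between different animals (72 pairs). Sequences are from RefSeq (GRCm38.p6) and GENCODE M21.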

Additional observations from a re-analysis of the deposited data

Results flagged for a closer look

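In 116 groups of 4 libraries, a group being 1 named member or the summed share in microglia, astrocytes, neurons or input, a library was picked out where its gap to the nearest other made up more of the group's range than Dixon's 95% critical value allows. That happened 3 times, and chance alone picks out about 5% of such groups. Rps20 was highest in neurons 5, at 1883 CPM, against at most 801 CPM in the other neurons. Rpl12 was lowest in astrocytes 3, at 0 CPM, with 13.5 CPM or more in the others. The pseudogene-named Rpl13a-ps1 was lowest in input 2, at 8.42 CPM, with 12.7 CPM or more in the others.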

How the results depend on the processing

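No member called in the main fit changed the sign of that difference under the alternatives that tested it. For medians the sign was not checked. Over the comparison results, 281 values with 1 library left out and 134 under other alternatives stayed within 1.5 times (counts) or 1 SD (shares), and 23 and 24 did not. A further count took the members called in the main fit together with the median log2 fold changes of the members. There, 4006 values with 1 library left out and 1961 under other alternatives kept their call or, for medians, stayed within 1 SD. In 418 and 190 a call was lost, and calls gained were not counted. The group share moved to 1.61% in neurons and 0.717% in input with the deposited library totals as denominator, and to 2.41% and 0.962% without mitochondrially encoded genes. In astrocytes against input, 17 members were higher with no filter, and 19 were lower with library totals only. With RLE scaling the balance there turned, with 11 higher and 7 lower members against 9 and 11 with TMM; scaled to the family sum, 23 were called with no filter. In neurons against input 1 was lower with library totals only. Microglia against astrocytes gave 2 lower with no filter and 0 without animal 5, and scaled to the sum 8 calls with no filter, 10 with DESeq2 and 2 without animal 5. Microglia against neurons gave 2 higher in a fit of those groups only, 2 higher and 3 lower without animal 5, and scaled to the sum 3 in either case. Astrocytes against neurons gave 1 higher with no filter or with astrocytes 2 and 4 only (chosen after seeing the data), and scaled to the sum 7 with no filter and 0 in a fit of the 2 groups only. Microglia against input gave 13 calls scaled to the sum without animal 5. Leaving out 1 library gave 6 to 15 higher and 4 to 12 lower members in astrocytes against input. It gave 35 to 45 higher and 0 to 1 lower in neurons against input, 25 to 41 higher and 0 to 1 lower in microglia against astrocytes, and 2 to 5 higher and 6 to 13 lower in microglia against neurons. In astrocytes against neurons it gave 0 to 1 higher and 34 to 46 lower. Scaled to the sum it gave 5 to 8, 5 to 11 and 2 to 6 calls in those 3 pairs of sorted groups. With the animal as a replicate block, which pairs the libraries, members called higher and lower numbered 35 and 0 in microglia, 8 and 10 in astrocytes and 38 and 0 in neurons against input. They numbered 32 and 1 in microglia against astrocytes, 3 and 10 in microglia against neurons, and 0 and 40 in astrocytes against neurons. Single calls lost under it are given in the text. The cause of these movements was not tested. Against input, the median of all genes was -0.04 in microglia, -0.09 in astrocytes and -0.11 in neurons with TMM, and changed sign with RLE scaling to 0.02, 0.0019 and 0.04. Library totals only shifted it to -0.18 in microglia, -0.43 in astrocytes and -0.24 in neurons on the log2 scale. Neuron libraries, with the lowest totals, set the widest counting error, and counts above 99 carry the rounding error.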
